A study of Mus musculus with 108 samples.

Results

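Livers of mice killed 12 h after a single dose of the PPARα ligand Wy-14643 were compared with livers of mice killed 12 h after vehicle. The comparison holds 6 arrays of the 108 in the study, chosen by their titles alone, with 3 biological replicates in each group; whether RNA of several animals was pooled is not stated in the labels. All genes named on the array were examined. The treated group was female, ovariectomized C57BL/6 mice given 300 mg/kg Wy-14643 by gavage, and the reference was the same kind of mice gavaged with sesame oil and killed as long after it. Both groups therefore share ovariectomy, gavage and the oil; their age, feeding and hour of dosing are not stated in the labels. The other arrays cover Wy-14643 and clofibrate, another PPARα ligand given at the same dose, at times between 2 h and 14 days, each with its own vehicle group of 3. Those killed 8 h and 18 h after Wy-14643, and 12 h after clofibrate, are used below to test where the 12 h response differs.

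PPARα is a nuclear receptor that binds DNA as a heterodimer with RXR, and in liver it is the main sensor of fatty acids in fasting. In rodents its ligands are known to raise genes of fatty acid uptake, activation and oxidation in mitochondria, peroxisomes and the endoplasmic reticulum, and to cause peroxisomes and liver cells to multiply. Wy-14643 and clofibrate are classical ligands of this kind.

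The unit throughout is the log2 of fluorescence after each array was scaled, here called the level, and a difference is the mean level of the Wy-14643 livers minus that of the vehicle livers, given with its standard error (SE). A difference of 1 is a doubling of fluorescence. Levels of different genes come from different probes and are not compared with each other. In whole liver RNA, fewer cells of a type and less RNA per cell cannot be told apart. A gene was called changed where limma's test, with Benjamini-Hochberg adjustment over all genes tested, gave an adjusted p under 0.05.

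Of 11475 genes tested, 1083 were higher and 1166 lower in Wy-14643 livers, which is 19.6% called in all, 9.44% called higher and 10.2% called lower. The same-numbered arrays of both groups deviated together, and with each number as a block the counts were 1904 higher and 2234 lower. Among the called genes, 750 were higher and 825 lower by more than 1.5-fold, and 74 were higher and 35 lower by more than 4-fold. The median difference of all genes was -0.06. The 3 Wy-14643 livers all lay above or all below the 3 vehicle livers for 4616 genes (40.2% of those tested) and for 2180 of the 2249 called. Without vehicle replicate 3 the count of called genes fell to 1639, the lowest of the counts with 1 array left out, and the highest was 1989.

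**Figure D1:**
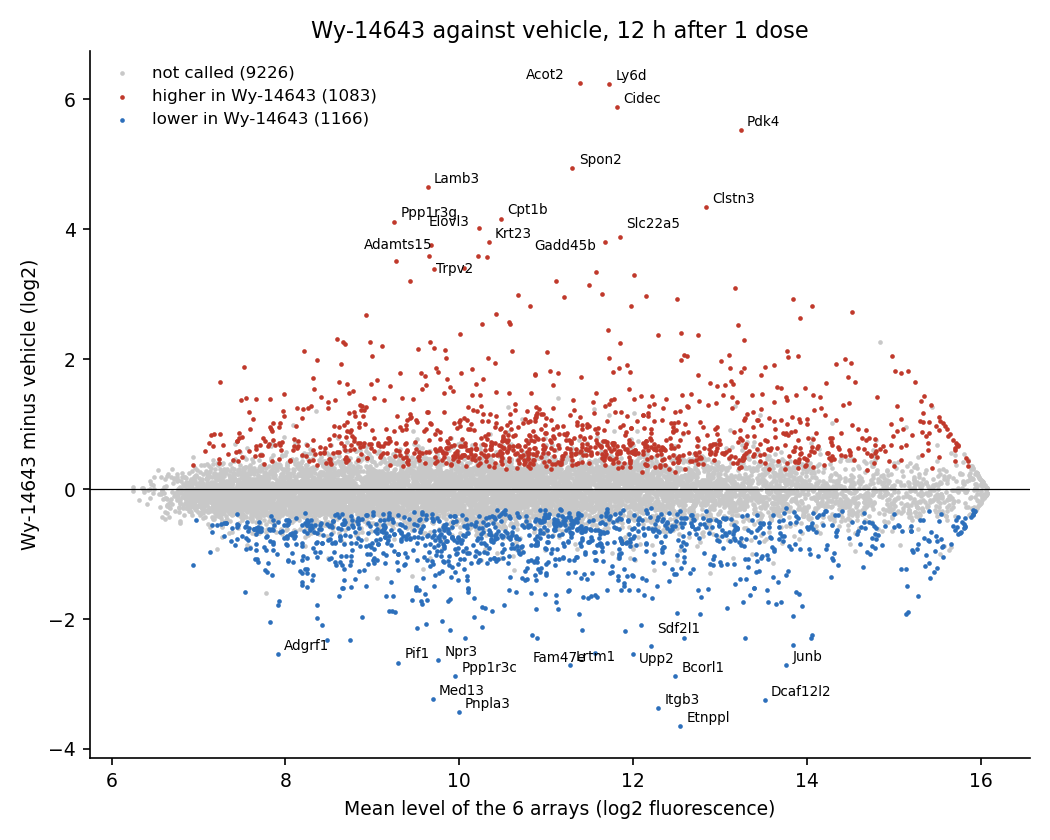
Difference between Wy-14643 and vehicle livers at 12 h (log2, vertical axis) against the mean level of the 6 arrays (log2 fluorescence, horizontal axis), 1 point per gene. Red points are the 1083 genes called higher, blue points the 1166 called lower, and the 15 highest and 15 lowest genes whose groups do not overlap are named. The points narrow at the right, where probes reach the brightest value an array can give.

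The genes with the highest differences were led by enzymes of fatty acid handling and by genes with other roles. Acot2, which cleaves acyl-CoA in the mitochondrial matrix, had levels of 14.49, 14.49 and 14.55 in Wy-14643 livers, against 8.93, 8.00 and 7.85 in vehicle livers, a difference of 6.25 ± 0.21 (limma adjusted p = 1.2e-24) or 76.3-fold. Ly6d, a membrane-anchored protein best known from lymphocyte and keratinocyte surfaces, had 14.85, 14.83 and 14.84 in Wy-14643 livers, against 8.76, 8.64 and 8.41 in vehicle livers (6.23 ± 0.46, limma adjusted p = 4.6e-14). Cidec, which fuses lipid droplets, had 14.48, 14.84 and 14.94 in Wy-14643 livers, against 8.81, 8.96 and 8.85 in vehicle livers (5.88 ± 0.26, limma adjusted p = 6.8e-21). In all of these the highest vehicle liver lay more than 5 log2 units below the lowest Wy-14643 liver.

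Pdk4, the kinase that turns off pyruvate dehydrogenase and so spares glucose, had 15.88, 16.08 and 16.04 in Wy-14643 livers, against 10.79, 10.44 and 10.21 in vehicle livers, a difference of 5.52 ± 0.40 (limma adjusted p = 3.0e-14). Its probe was at the brightest value of the array in 2 of the 3 Wy-14643 livers, so the true difference may be larger. The other genes among the 15 highest ranged from 4.94 for Spon2, a secreted matrix protein, to 3.59 for Trpv2, a cation channel. They included the laminin chain Lamb3 (4.65), the calsyntenin Clstn3 (4.35), the keratin Krt23 (3.80), the stress-response gene Gadd45b (3.80) and the extracellular protease Adamts15 (3.76). Like all of the 15, these 7 genes were picked among called genes whose groups do not overlap. None of the 7 lost its call under the 16 alternatives run.

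Among the lowest differences, Etnppl, which breaks down phosphoethanolamine, had 10.48, 11.09 and 10.59 in Wy-14643 livers, against 14.32, 14.46 and 14.30 in vehicle livers (-3.64 ± 0.67, limma adjusted p = 6.2e-05). Pnpla3, an enzyme of lipid droplets that is known to fall in fasting, had 8.61, 7.93 and 8.30 in Wy-14643 livers, against 12.37, 12.13 and 10.62 in vehicle livers (-3.43 ± 0.56, limma adjusted p = 1.3e-05). The lowest genes, too, were picked among those whose groups do not overlap. Vehicle replicate 3 lay well below the other vehicle livers for Pnpla3. Others were Ppp1r3c, which directs glycogen synthesis (-2.88), the helicase Pif1 (-2.67), the uridine phosphorylase Upp2 (-2.54), the adhesion receptor Adgrf1 (-2.54), Lrtm1 (-2.71), Fam47e (-2.53), Dcaf12l2 (-3.25) and the endoplasmic reticulum protein Sdf2l1 (-2.41).

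The remaining 5 of the 15 lowest genes rest on a probe that the gene's other probes do not bear out. Med13 fell by 3.23 on the probe used, while its other probes differed by 0.12 and 0.32. Itgb3 differed by -3.38 with 0.22 on its other probe, Bcorl1 by -2.88 with -0.23, Junb by -2.70 with -0.52 and Npr3 by -2.63 with -0.14. In these genes the Wy-14643 livers lay close together and the vehicle livers far apart: Med13 had 7.89, 7.96 and 8.39 in Wy-14643 livers, against 9.74, 11.64 and 12.55 in vehicle livers, and Itgb3 had 10.53, 10.46 and 10.81 in Wy-14643 livers, against 12.93, 14.16 and 14.84 in vehicle livers. Vehicle replicate 1 was lowest and vehicle replicate 3 highest in all 5. These genes were picked out after their values were seen; of 41 genes called with a difference over 2 in size and with another listed probe, 7 had no other probe past 0.6 in size, 1 of the 29 higher and 6 of the 12 lower genes. Over all called genes with 1 other probe, that probe had the same sign for 321 of 336 higher and 301 of 313 lower genes.

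**Figure D2:**
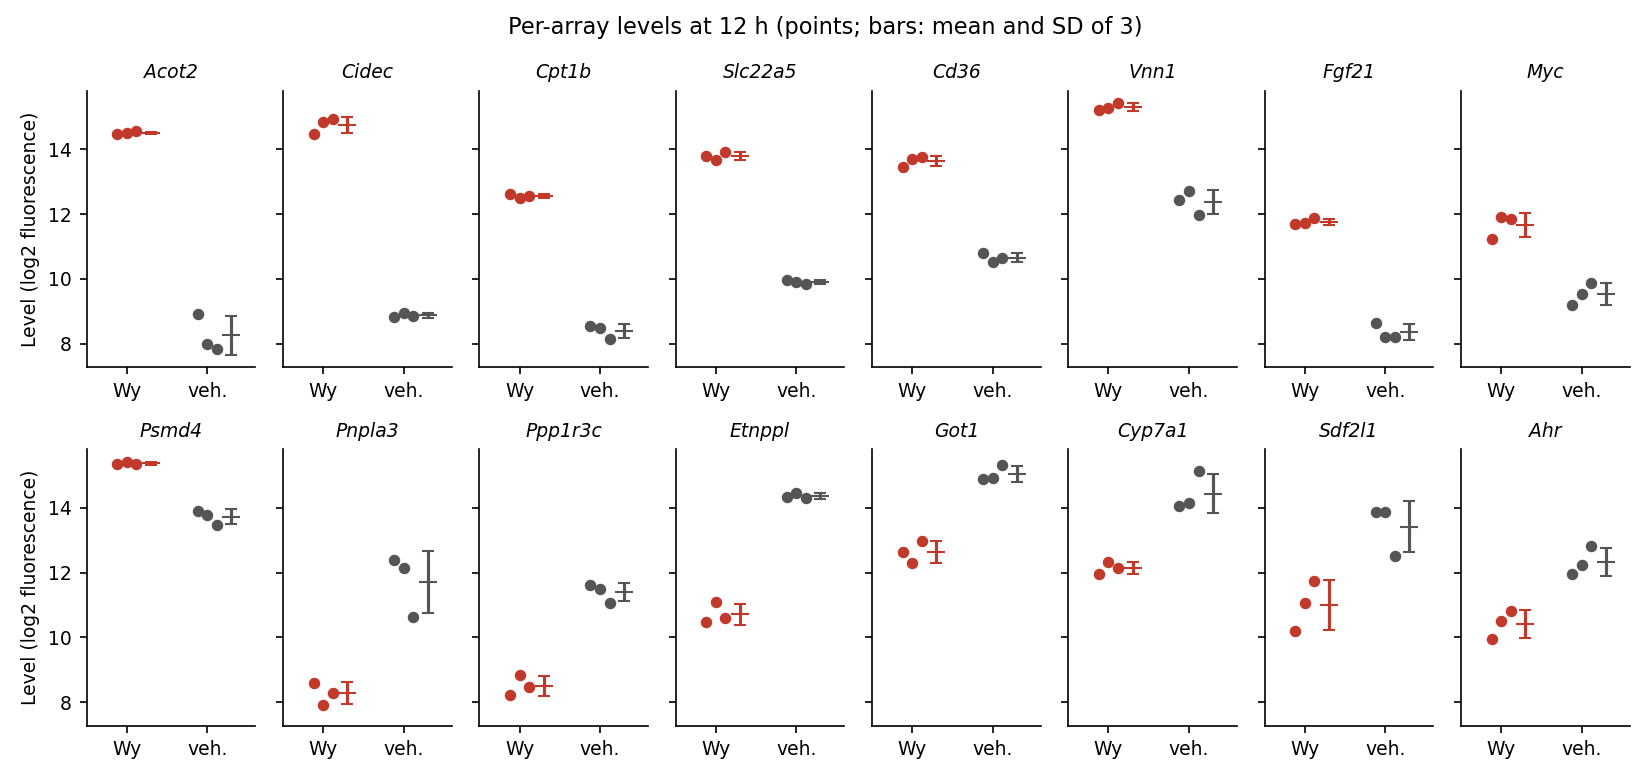
Level (log2 fluorescence, vertical axis, shared by all panels) of 16 genes in each array at 12 h, with the 3 Wy-14643 livers in red on the left and the 3 vehicle livers in grey on the right of each panel. Bars give the mean and SD of 3 arrays. In all 16 genes the groups do not overlap, as in 40.2% of all genes tested. Several of the 16, Acot2 and Etnppl among them, were picked among genes without overlap.

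Genes called higher were found among the fatty acid enzymes of mitochondria, peroxisomes and the endoplasmic reticulum. Of 9 tested carnitine genes, which carry fatty acids into mitochondria, 7 were higher and 0 lower, with a median difference of 1.82. The plasma membrane carnitine transporter Slc22a5 had 13.78, 13.66 and 13.93 in Wy-14643 livers, against 9.97, 9.92 and 9.84 in vehicle livers (3.88 ± 0.20, limma adjusted p = 4.7e-19), and its neighbour in the family Slc22a21 differed by 3.38 ± 0.17. Cpt1b, the form of the entry enzyme typical of muscle, had 12.62, 12.50 and 12.57 in Wy-14643 livers, against 8.54, 8.50 and 8.16 in vehicle livers (4.16 ± 0.26), while the liver form Cpt1a differed by 0.79 ± 0.18 (limma adjusted p = 0.00084). Carnitine acetyltransferase Crat (2.81), the peroxisomal octanoyltransferase Crot (1.82) and the inner membrane carrier Slc25a20 (1.76) were higher as well. Cpt2, at the limit in all 3 Wy-14643 livers, differed by 0.33 (limma adjusted p = 0.052, and 0.033 with the replicate block), and the carnitine-making enzyme Bbox1 by 0.23 (limma adjusted p = 0.56); neither passed the test.

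Of 15 tested enzymes of mitochondrial β-oxidation 10 were higher and 0 lower, and with the replicate block 11 were higher and 2 lower. Decr1, needed for unsaturated fatty acids, had 11.89, 12.14 and 12.04 in Wy-14643 livers, against 10.30, 10.50 and 9.91 in vehicle livers (1.79 ± 0.23, limma adjusted p = 8.3e-08). The dehydrogenases Acad11 (1.46) and Acadl (1.34) and the trifunctional protein's α subunit Hadha (1.38) were higher too. The β subunit Hadhb was at the brightest value of the array in all 3 Wy-14643 livers and was at least 2.45-fold higher. The medium-chain dehydrogenase Acadm (0.24, with all Wy-14643 livers at the limit) did not pass the test, and 4 further members, Acadvl, Acaa2, Eci2 and Etfb, were too bright in all 6 arrays to be tested.

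In peroxisomes, 5 of 13 tested β-oxidation genes were higher and 1 lower, with 3 and 0 when vehicle replicate 3 was left out. The 1 lower gene, the reductase Pecr, lost its call without any single array but vehicle replicate 1. Ehhadh, the classical peroxisome proliferator target, was at least 3.15-fold higher, with all 3 Wy-14643 livers at the brightest value (limma adjusted p = 0.00020). The thioesterase Acot8 had 15.16, 15.27 and 15.42 in Wy-14643 livers, against 13.27, 13.46 and 13.37 in vehicle livers (1.92 ± 0.13, limma adjusted p = 7.0e-15). The thiolases Acaa1a and Acaa1b, catalase (Cat) and 3 more members were too bright in all arrays to be tested. Of 13 tested peroxins, which build peroxisomes, 7 were higher and 1 lower. Pex11a, which divides peroxisomes, was at least 3.54-fold higher (limma adjusted p = 1.1e-06), and the import factors Pex19 (1.28), Pex14 (1.24), Pex16 (1.13) and Pex5 (1.00) differed by about 1 or more. The 1 lower peroxin, Pex7 (-0.36), lost its call without vehicle replicate 1 (limma adjusted p = 0.10), vehicle replicate 3 (0.17) or any 1 of the Wy-14643 livers (0.062 to 0.078).

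Omega-hydroxylases of the Cyp4 family oxidize the far end of fatty acids in the endoplasmic reticulum. Of 9 tested, 3 were higher and 2 lower. Cyp4a12b had 14.71, 14.76 and 14.70 in Wy-14643 livers, against 11.91, 11.70 and 11.27 in vehicle livers (3.10 ± 0.29, limma adjusted p = 3.8e-11), and Cyp4a31 differed by 3.01 ± 0.44. Cyp4f14, of the branch that acts on leukotrienes and vitamin E, was lower with 14.62, 14.79 and 14.86 in Wy-14643 livers, against 15.66, 16.04 and 16.15 in vehicle livers (-1.19 ± 0.30, limma adjusted p = 0.0032). The other lower member, Cyp4f13, lost its call without vehicle replicate 2 (limma adjusted p = 0.094), vehicle replicate 3 (0.074) or Wy-14643 replicate 1 (0.12), which leaves 1 lower gene. Cyp4a14 was too bright in all arrays to be tested. The brightest Cyp4a10 probe was at the limit in all 3 Wy-14643 livers and its difference of 0.36 was not called, while its dimmer probes differed by 1.85 to 3.00. Members of the Cyp4a and Acot families have closely similar sequences, and how far their probes catch one another's RNA was not tested.

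Acyl-CoA thioesterases, which release free fatty acids from CoA, had 4 of 9 tested members higher and 0 lower. Beside Acot2, these were Acot4 with 14.84, 15.65 and 15.22 in Wy-14643 livers, against 12.64, 12.57 and 12.59 in vehicle livers (2.64 ± 0.35, limma adjusted p = 2.1e-07), Acot3 (1.87) and Acot12 (0.82). The cytosolic Acot1 was at the limit in all 3 Wy-14643 livers, so that its difference of 1.27 is a lower bound (limma adjusted p = 0.050, and 0.029 with the replicate block). Acot5 was listed in the Wy-14643 livers only.

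Genes that take up, store and release fat were higher as well. Of 17 tested lipid droplet genes 9 were higher and 2 lower, and of 14 tested genes of fatty acid uptake, binding and activation 7 were higher and 0 lower. The fatty acid transporter Cd36 had 13.46, 13.70 and 13.76 in Wy-14643 livers, against 10.81, 10.54 and 10.64 in vehicle livers (2.98 ± 0.34, limma adjusted p = 5.4e-09). Lipoprotein lipase (Lpl) differed by 1.64 ± 0.34, the VLDL receptor (Vldlr) by 1.76 ± 0.39 and the adipocyte-type binding protein Fabp4 by 1.55 ± 0.24. All 3 Wy-14643 livers lay above all vehicle livers in these 4 genes.

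Both sides of the control of lipolysis were higher: the lipase Pnpla2 had 15.31, 15.26 and 15.77 in Wy-14643 livers, against 13.11, 13.52 and 13.69 in vehicle livers (2.01 ± 0.18, limma adjusted p = 6.4e-12). Its inhibitor G0s2 had 16.04, 15.91 and 15.72 in Wy-14643 livers, against 14.04, 13.19 and 12.24 in vehicle livers (2.73 ± 0.44, limma adjusted p = 7.5e-06), and the hypoxia-inducible inhibitor Hilpda had 13.19, 13.17 and 12.84 in Wy-14643 livers, against 10.43, 9.97 and 9.35 in vehicle livers (3.15 ± 0.29, limma adjusted p = 1.9e-11). The droplet-forming Fitm2 differed by 2.06 ± 0.18, and Plin5, which ties droplets to mitochondria, was at the limit in all Wy-14643 livers and at least 2.15-fold higher. The lower droplet genes were Pnpla3 and Plin3 (-0.88), and Plin3, another coat protein, lost its call without vehicle replicate 3 (limma adjusted p = 0.068) or Wy-14643 replicate 1 (0.062), leaving 1.

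In triglyceride synthesis 5 of 11 tested genes were higher and 1 lower, and 3 were higher without vehicle replicate 2, Wy-14643 replicate 2 or Wy-14643 replicate 3. The acyltransferase Gpat3 had 14.10, 13.86 and 13.94 in Wy-14643 livers, against 11.08, 11.11 and 10.93 in vehicle livers (2.92 ± 0.23, limma adjusted p = 3.9e-13), and Mogat1, of the monoacylglycerol route, had 10.80, 10.13 and 9.85 in Wy-14643 livers, against 7.71, 7.60 and 7.46 in vehicle livers (2.67 ± 0.18). Lpin1, a phosphatidate phosphatase that is also a coactivator of PPARα, was lower with 11.42, 10.58 and 11.13 in Wy-14643 livers, against 12.88, 13.17 and 13.35 in vehicle livers (-2.10 ± 0.44, limma adjusted p = 0.00040), while its relative Lpin2 was higher (0.92).

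Among 8 tested genes of ketogenesis and fasting 5 were higher and 0 lower, or 3 without Wy-14643 replicate 1. The fasting hormone Fgf21 had 11.70, 11.72 and 11.87 in Wy-14643 livers, against 8.64, 8.21 and 8.21 in vehicle livers (3.41 ± 0.49, limma adjusted p = 9.6e-07). Slc16a1, which exports ketone bodies and lactate, differed by 1.79 ± 0.20, with 2 Wy-14643 livers at the limit.

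Genes of fatty acid synthesis were called in both directions. Of 16 tested genes 3 were higher and 4 lower, against 9.44% higher and 10.2% lower of all genes. The lower count was 2 without vehicle replicate 1, vehicle replicate 2 or Wy-14643 replicate 1. The elongase Elovl3 had 12.71, 12.08 and 11.90 in Wy-14643 livers, against 7.96, 8.50 and 8.18 in vehicle livers (4.01 ± 0.46, limma adjusted p = 1.0e-08), and malic enzyme Me1, a source of NADPH, differed by 1.57 ± 0.41. ATP citrate lyase (Acly), which supplies cytosolic acetyl-CoA, had 10.61, 10.37 and 10.01 in Wy-14643 livers, against 12.94, 12.25 and 12.29 in vehicle livers (-2.16 ± 0.40, limma adjusted p = 8.3e-05), and the acetyl-CoA synthetase Acss2 differed by -1.52 ± 0.43. Fasn and Srebf1 were too bright in all arrays to be tested, and Scd1 (-0.17) and Acaca (-0.16) did not pass the test.

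Sugar metabolism genes showed opposite changes within 1 family. Of 19 tested, 2 were higher and 5 lower, against 9.44% higher and 10.2% lower of all genes. The glycogen-targeting subunits of protein phosphatase 1 moved apart: Ppp1r3g had 11.20, 10.95 and 11.78 in Wy-14643 livers, against 7.03, 6.77 and 7.78 in vehicle livers (4.12 ± 0.51, limma adjusted p = 1.4e-07), whereas Ppp1r3c had 8.24, 8.84 and 8.46 in Wy-14643 livers, against 11.61, 11.50 and 11.08 in vehicle livers (-2.88 ± 0.35, limma adjusted p = 4.1e-08), and Ppp1r3b differed by -1.67 ± 0.30. The groups did not overlap in Ppp1r3b, while Ppp1r3g and Ppp1r3c were picked among genes without overlap. Liver pyruvate kinase Pklr was lower (-2.03 ± 0.38) and the mitochondrial glycerophosphate dehydrogenase Gpd2 higher (1.43 ± 0.25).

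Sterol genes were mostly below vehicle. Of 18 tested cholesterol genes 1 was higher and 8 lower, and only 2 of the 18 differences were above 0. The count of lower genes was 4 without vehicle replicate 1 and 4 without Wy-14643 replicate 3. The 1 higher gene was Insig2; 0 were higher without vehicle replicate 1 or Wy-14643 replicate 2, and 2 without vehicle replicate 2. Insig1, which holds back sterol synthesis and is itself a target of that pathway's factor SREBP, had 11.50, 11.14 and 10.82 in Wy-14643 livers, against 13.15, 12.68 and 12.09 in vehicle livers (-1.49 ± 0.34, limma adjusted p = 0.0011). The synthesis enzymes Fdps (-1.14), Mvk (-1.08) and Sc5d (-0.90) were lower too. Hmgcs1 was too bright in all arrays to be tested.

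Among bile acid genes 7 of 20 tested were lower and 2 higher, against 10.2% lower and 9.44% higher of all genes. Cyp7a1, the rate-limiting enzyme of bile acid synthesis, had 11.95, 12.34 and 12.13 in Wy-14643 livers, against 14.07, 14.13 and 15.12 in vehicle livers (-2.30 ± 0.67, limma adjusted p = 0.011, and 0.074 without vehicle replicate 3). The reductase Akr1d1 (-1.53), the uptake transporter Slco1a4 (-1.85), the conjugating enzyme Baat (-0.77) and the export pump Abcb11 (-0.50) were lower. The basolateral pump Abcc4 went the other way, with 11.98, 11.68 and 11.65 in Wy-14643 livers, against 9.36, 8.78 and 9.10 in vehicle livers (2.69 ± 0.25, limma adjusted p = 3.4e-11). The other higher gene, Abcc3 (0.68), lost its call without vehicle replicate 2 (limma adjusted p = 0.058), vehicle replicate 3 (0.17), Wy-14643 replicate 1 (0.12) or Wy-14643 replicate 2 (0.12).

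Of 21 tested genes of amino acid breakdown and the urea cycle 11 were lower and 0 higher, and 20 of the 21 differences were below 0. Got1, a cytosolic transaminase that links amino acids to gluconeogenesis, had 12.62, 12.30 and 12.99 in Wy-14643 livers, against 14.88, 14.93 and 15.31 in vehicle livers (-2.40 ± 0.27, limma adjusted p = 4.3e-09). Histidine ammonia lyase (Hal) had 12.81, 13.12 and 12.87 in Wy-14643 livers, against 15.13, 15.30 and 15.12 in vehicle livers (-2.25 ± 0.25, limma adjusted p = 2.3e-09). Proline dehydrogenase (Prodh) was at the limit in all 3 vehicle livers and was at least 3.69-fold lower (limma adjusted p = 5.1e-08). The transsulfuration enzymes Cth (-1.16) and Cbs (-0.82) and the urea cycle genes Asl (-1.23), Slc25a15 (-0.93) and Nags (-0.67) were lower as well. Tat, Ass1 and Gnmt were too bright in all arrays to be tested. Tryptophan dioxygenase Tdo2, counted in another list, was higher, with 15.84, 16.08 and 16.04 in Wy-14643 livers, against 14.58, 14.50 and 14.80 in vehicle livers (1.35 ± 0.20, limma adjusted p = 1.8e-06) and 2 Wy-14643 livers at the limit. The nicotinamide methyltransferase Nnmt was at least 2.59-fold lower.

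Proteasome genes lay above vehicle by small amounts. All 31 constitutive proteasome subunits listed were tested, 31 differences were above 0, and 15 were called higher and 0 lower, with a median difference of 0.41. With the replicate block 22 were higher. Psmd4, a ubiquitin receptor of the regulatory particle, had 15.34, 15.42 and 15.36 in Wy-14643 livers, against 13.91, 13.79 and 13.48 in vehicle livers (1.65 ± 0.15, limma adjusted p = 3.1e-11), and the core subunit Psma5 had 15.95, 15.72 and 15.89 in Wy-14643 livers, against 15.03, 14.64 and 14.79 in vehicle livers (1.03 ± 0.13). The 3 interferon-inducible catalytic subunits, which replace constitutive ones in the immunoproteasome, were lower: Psmb9 had 10.78, 10.76 and 10.79 in Wy-14643 livers, against 12.25, 11.94 and 12.07 in vehicle livers (-1.31 ± 0.26, limma adjusted p = 0.00023), Psmb10 differed by -1.004 (limma adjusted p = 0.0020) and Psmb8 by -0.62 ± 0.23. The call of Psmb8 was lost without any 1 of the 6 arrays but vehicle replicate 3 (limma adjusted p from 0.055 to 0.17).

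Heat shock and chaperonin genes had 12 of 23 tested members higher and 0 lower, and 22 of 23 differences above 0. The count was 3 without vehicle replicate 3. Hspb1, a small heat shock protein, had 11.49, 11.73 and 12.05 in Wy-14643 livers, against 9.83, 10.32 and 9.81 in vehicle livers (1.77 ± 0.32, limma adjusted p = 4.3e-05), and Hspa1b differed by 1.48 ± 0.32 (limma adjusted p = 0.00067). Both kept their calls without that array. Genes of ribosome biogenesis and translation had the same dependence, with 10 of 21 higher and 1 lower, and 2 higher without vehicle replicate 3; the 1 lower gene, the initiation factor Eif1a, lost its call without vehicle replicate 1 or 2 or Wy-14643 replicate 1 or 2. Rrs1, an assembly factor of the large subunit, had 12.13, 12.51 and 12.34 in Wy-14643 livers, against 11.65, 11.48 and 11.00 in vehicle livers (0.95 ± 0.22, limma adjusted p = 0.0016).

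In the list of ER stress and amino acid response genes 6 of 19 tested were lower and 0 higher, the median difference was -0.60, and 4 differences were above 0. With the replicate block 9 were lower and 1 higher. Sdf2l1, a partner of the ER chaperone BiP, had 10.19, 11.07 and 11.75 in Wy-14643 livers, against 13.86, 13.87 and 12.50 in vehicle livers (-2.41 ± 0.51, limma adjusted p = 0.00045). Edem1, which sends misfolded proteins to degradation, had 12.70, 12.68 and 12.79 in Wy-14643 livers, against 13.98, 13.94 and 13.83 in vehicle livers (-1.20 ± 0.17, limma adjusted p = 7.6e-07), and Herpud1, of the same degradation complex, was at the limit in all vehicle livers and at least 2.42-fold lower. The factor Xbp1 (-0.62), the chaperone BiP (Hspa5, -0.31, with 3 of 6 arrays at the limit) and its partner Hyou1 (-1.30) were not called; with the replicate block the adjusted p was 0.024 for Xbp1 and 0.0058 for Hyou1. At 8 h the differences were -0.24 for Sdf2l1 and -0.14 for Edem1, and limma called neither gene for a difference between 8 h and 12 h; with the replicate block Edem1 was called (12 h minus 8 h -1.06, adjusted p = 0.024) and Sdf2l1 was not (-2.16, adjusted p = 0.15).

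The promoters of 4 lower genes are shown because they hold the ER stress element (CCAAT, any 9 bases, CCACG), the site through which the factors ATF6 and XBP1 are known to act. The element is in capitals, searched on both strands; each stretch is the 250 bases before the RefSeq start (GRCm38.p6, plus strand), read 5′ to 3′. Where the element lies on the other strand its reverse complement is what the capitals spell.
Ero1b, chr13:12565633-12565882: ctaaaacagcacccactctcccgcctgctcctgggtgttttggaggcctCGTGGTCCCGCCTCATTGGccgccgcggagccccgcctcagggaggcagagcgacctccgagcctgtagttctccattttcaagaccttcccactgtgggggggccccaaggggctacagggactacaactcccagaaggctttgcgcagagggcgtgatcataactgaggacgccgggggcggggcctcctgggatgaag
Syvn1, chr19:6046326-6046575: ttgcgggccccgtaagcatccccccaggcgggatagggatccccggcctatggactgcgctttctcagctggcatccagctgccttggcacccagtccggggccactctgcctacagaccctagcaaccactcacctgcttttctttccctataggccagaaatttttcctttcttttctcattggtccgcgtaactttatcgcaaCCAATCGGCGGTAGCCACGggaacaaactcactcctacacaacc
Pdia6, chr12:17266339-17266588: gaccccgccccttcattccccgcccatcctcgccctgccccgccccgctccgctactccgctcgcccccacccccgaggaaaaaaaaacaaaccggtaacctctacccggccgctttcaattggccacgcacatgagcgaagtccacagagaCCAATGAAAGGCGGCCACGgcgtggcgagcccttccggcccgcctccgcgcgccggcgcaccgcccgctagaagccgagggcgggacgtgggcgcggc
Creld2, chr15:88819396-88819645: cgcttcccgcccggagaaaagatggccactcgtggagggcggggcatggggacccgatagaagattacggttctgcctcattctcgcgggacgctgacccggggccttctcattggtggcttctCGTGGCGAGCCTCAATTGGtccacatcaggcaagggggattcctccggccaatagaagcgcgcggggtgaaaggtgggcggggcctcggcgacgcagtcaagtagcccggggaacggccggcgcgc

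Ero1b reoxidizes the enzymes that form disulfide bonds, Pdia6 is one of those enzymes, Syvn1 is the ubiquitin ligase of ER-associated degradation, and Creld2 is a secreted ER stress protein. Ero1b had 10.00, 10.20 and 10.71 in Wy-14643 livers, against 11.89, 12.21 and 11.69 in vehicle livers (-1.63 ± 0.25, limma adjusted p = 3.7e-06). Syvn1 had 14.48, 15.02 and 15.64 in Wy-14643 livers, against 16.02, 16.14 and 16.12 in vehicle livers, all at the limit (-1.05 ± 0.22, limma adjusted p = 0.00042). Pdia6 differed by -0.88 ± 0.22 (adjusted p = 0.057 without Wy-14643 replicate 1) and Creld2 by -1.24 ± 0.40 (adjusted p from 0.076 to 0.12 without vehicle replicate 1 or 2 or Wy-14643 replicate 1 or 2).

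Over all windows of 250 bases before to 50 after a RefSeq start, 0.119% held the element. Among genes tested at 12 h with such a window, 18 of 9285 held it: 6 of the 934 lower genes (0.642%), 0 of the 894 higher and 12 of the 7457 not called. The lower ones were those 4 genes, Canx (-0.53) and Alg12 (-0.999). Of the ER stress and amino acid response list, 6 of 19 members with a window held the element. Creld2 and Pdia6 were lower, Hspa5 (-0.31), Calr (-0.56) and Dnajc3 (-0.78) were not called, and Hsp90b1 was not tested. Ero1b and Syvn1 are not in that list. The windows of Alg12 and Creld2 overlap and share 1 site. The call of Canx was lost without any single array but vehicle replicate 3 (adjusted p from 0.054 to 0.11), and when a gene's probes were averaged (0.0896). The motif was chosen after the values of the ER genes were seen, and a match is a description of the letters only. The PPAR and RXR direct repeat in the form AGGTCA, any 1 base, AGGTCA, searched on both strands, was in 0.0396% of all windows. Of the 9285 tested genes 4 held it, with 0 among the 894 higher and 1 among the 934 lower genes. The looser form with AGGNCA in both places was in 0.381% of windows and in 29 of the 9285 tested genes. These were 0 of the 894 higher, 4 of the 934 lower and 25 of the 7457 not called. Matches were too few for the 0 among higher genes to be read as a lack.

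Of 17 tested immediate early genes, which answer growth signals within minutes to hours, 3 were higher and 1 lower. Over all genes 9.44% were higher and 10.2% lower. The lower count was 2 without vehicle replicate 2, Wy-14643 replicate 1 or Wy-14643 replicate 2. With the replicate block 3 were higher and 5 lower, beside 1904 and 2234 of all 11475 genes. Myc had 11.24, 11.90 and 11.85 in Wy-14643 livers, against 9.21, 9.54 and 9.89 in vehicle livers (2.12 ± 0.59, limma adjusted p = 0.0076), Jun had 11.39, 11.04 and 10.94 in Wy-14643 livers, against 9.80, 9.32 and 9.18 in vehicle livers (1.69 ± 0.43, limma adjusted p = 0.0036), and Klf10 differed by 2.01 ± 0.44. Fos (-0.37) and Egr1 (-0.52) did not pass the test. The 1 lower gene was Junb, whose other probe was given above.

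Gadd45b had 13.59, 13.58 and 13.57 in Wy-14643 livers, against 9.79, 9.18 and 10.36 in vehicle livers (3.80 ± 0.45, limma adjusted p = 1.2e-08), with nearly equal values in the treated livers. The p53 target Trp53inp1 was lower, with 8.89, 8.90 and 8.95 in Wy-14643 livers, against 10.95, 10.90 and 11.78 in vehicle livers (-2.30 ± 0.37, limma adjusted p = 8.5e-06). Cdkn1a, a brake of the cell cycle, had 10.80, 10.79 and 10.99 in Wy-14643 livers, against 8.50, 9.04 and 9.00 in vehicle livers (2.02 ± 0.59, limma adjusted p = 0.012, and 0.050 without vehicle replicate 1). Of 30 tested genes of the cell cycle and DNA replication 5 were higher and 1 lower, against 9.44% higher and 10.2% lower of all genes. With the replicate block 10 were higher and 1 lower, beside 1904 and 2234 of all 11475 genes. With single arrays left out the higher count ran from 2 to 9. It was 2 without vehicle replicate 3 or Wy-14643 replicate 1, and 3 without Wy-14643 replicate 3. It was 8 without vehicle replicate 2 and 9 without Wy-14643 replicate 2. Cdca7, a target of Myc, kept its call in each (1.38 ± 0.21, limma adjusted p = 2.5e-06), while the mitotic genes Mki67 (-0.44) and Cdk1 (-0.22) did not pass the test.

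The xenobiotic receptor gene Ahr had 9.95, 10.50 and 10.81 in Wy-14643 livers, against 11.97, 12.23 and 12.82 in vehicle livers (-1.92 ± 0.23, limma adjusted p = 2.7e-08), with replicate 1 lowest and replicate 3 highest in both groups. Antioxidant targets of NRF2 had 5 of 17 tested members higher and 0 lower, or 3 higher without vehicle replicate 2 or Wy-14643 replicate 2. Srxn1, which repairs peroxiredoxins, had 14.37, 15.36 and 14.74 in Wy-14643 livers, against 12.74, 12.93 and 12.45 in vehicle livers (2.12 ± 0.22, limma adjusted p = 8.9e-10), and Txnrd1 differed by 0.62 ± 0.16. In the circadian clock 2 of 14 tested genes were lower, against 10.2% of all genes, and 0 were higher. With the replicate block 5 were lower, beside 2234 of all 11475 genes. Nfil3 had 10.16, 11.04 and 10.72 in Wy-14643 livers, against 12.21, 12.21 and 12.53 in vehicle livers (-1.68 ± 0.39, limma adjusted p = 0.0015). Cry1 differed by -0.96 ± 0.23. Among PPARs, partners and coregulators the factor Creb3l3, a partner of PPARα in fasting, was higher with 15.56, 15.99 and 15.91 in Wy-14643 livers, against 14.63, 15.04 and 14.67 in vehicle livers (1.04 ± 0.14, limma adjusted p = 2.0e-07). Ppara itself differed by 0.56 ± 0.39 (limma adjusted p = 0.36, and 0.0024 with the replicate block).

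Of 14 tested coagulation genes 7 were lower and 0 higher, with all 14 differences below 0. Factor XI (F11) had 12.71, 12.48 and 13.15 in Wy-14643 livers, against 14.00, 14.18 and 13.96 in vehicle livers (-1.27 ± 0.21, limma adjusted p = 1.4e-05), plasma prekallikrein Klkb1 differed by -1.12 ± 0.25 and factor VII (F7) by -0.91 ± 0.16. Of 17 tested complement genes 6 were lower and 0 higher, 10 lower with the replicate block, and 3 without vehicle replicate 2 or 3 or 2 without Wy-14643 replicate 1 or 2. Masp1, a protease that starts the lectin pathway, had 12.87, 12.65 and 12.74 in Wy-14643 livers, against 13.86, 13.71 and 13.92 in vehicle livers (-1.08 ± 0.15, limma adjusted p = 9.5e-07), though its other probes differed by -0.46 and -0.33. The serum amyloid gene Saa4 was lower (-1.83 ± 0.45, limma adjusted p = 0.0025), and the inducible Saa1 (-0.22) and Saa2 (-0.16) did not pass the test.

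Of 10 tested sulfotransferase genes 6 were lower and 0 higher, with a median difference of -0.87. Tpst1, which sulfates tyrosines, had 11.28, 11.23 and 11.32 in Wy-14643 livers, against 12.74, 12.72 and 13.04 in vehicle livers (-1.56 ± 0.14, limma adjusted p = 1.7e-11). Sult1c2 had 9.45, 9.00 and 9.12 in Wy-14643 livers, against 11.33, 10.91 and 11.22 in vehicle livers (-1.96 ± 0.42), and Sult1b1 differed by -1.67 ± 0.24 and Sult1d1 by -1.36 ± 0.26. Among 16 tested Cyp2 and Cyp3 drug-metabolizing genes limma called 0 changed, against 19.6% of all genes. An unadjusted p under 0.05 was found for 6, all lower, beside 3471 of all 11475 genes in either direction. With the replicate block 4 were lower, beside 2234 of all 11475 genes. Another 11 of these genes, Cyp3a11 and Cyp2e1 among them, were too bright in all arrays to be tested. Of 20 tested interferon response genes 3 were lower, against 10.2% of all genes, and 0 higher. The 3 were Mx2 (-0.95), Oasl1 (-0.91) and Ifih1 (-0.79). With the replicate block 6 were lower, beside 2234 of all 11475 genes.

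Outside these pathways, the pantetheinase Vnn1, a known PPARα target, had 15.20, 15.29 and 15.43 in Wy-14643 livers, against 12.44, 12.72 and 11.96 in vehicle livers (2.93 ± 0.20, limma adjusted p = 2.3e-15). The mitochondrial carrier Slc25a30 had 11.29, 11.69 and 11.36 in Wy-14643 livers, against 8.41, 7.70 and 7.48 in vehicle livers (3.58 ± 0.39, limma adjusted p = 2.3e-09). Retsat, which saturates retinol, was higher by 2.05 ± 0.22 with 2 Wy-14643 livers at the limit, and the nucleoside transporter Slc29a1 was lower, with 12.74, 12.99 and 13.10 in Wy-14643 livers, against 14.04, 14.40 and 14.70 in vehicle livers (-1.44 ± 0.20, limma adjusted p = 8.5e-07).

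**Figure D3:**
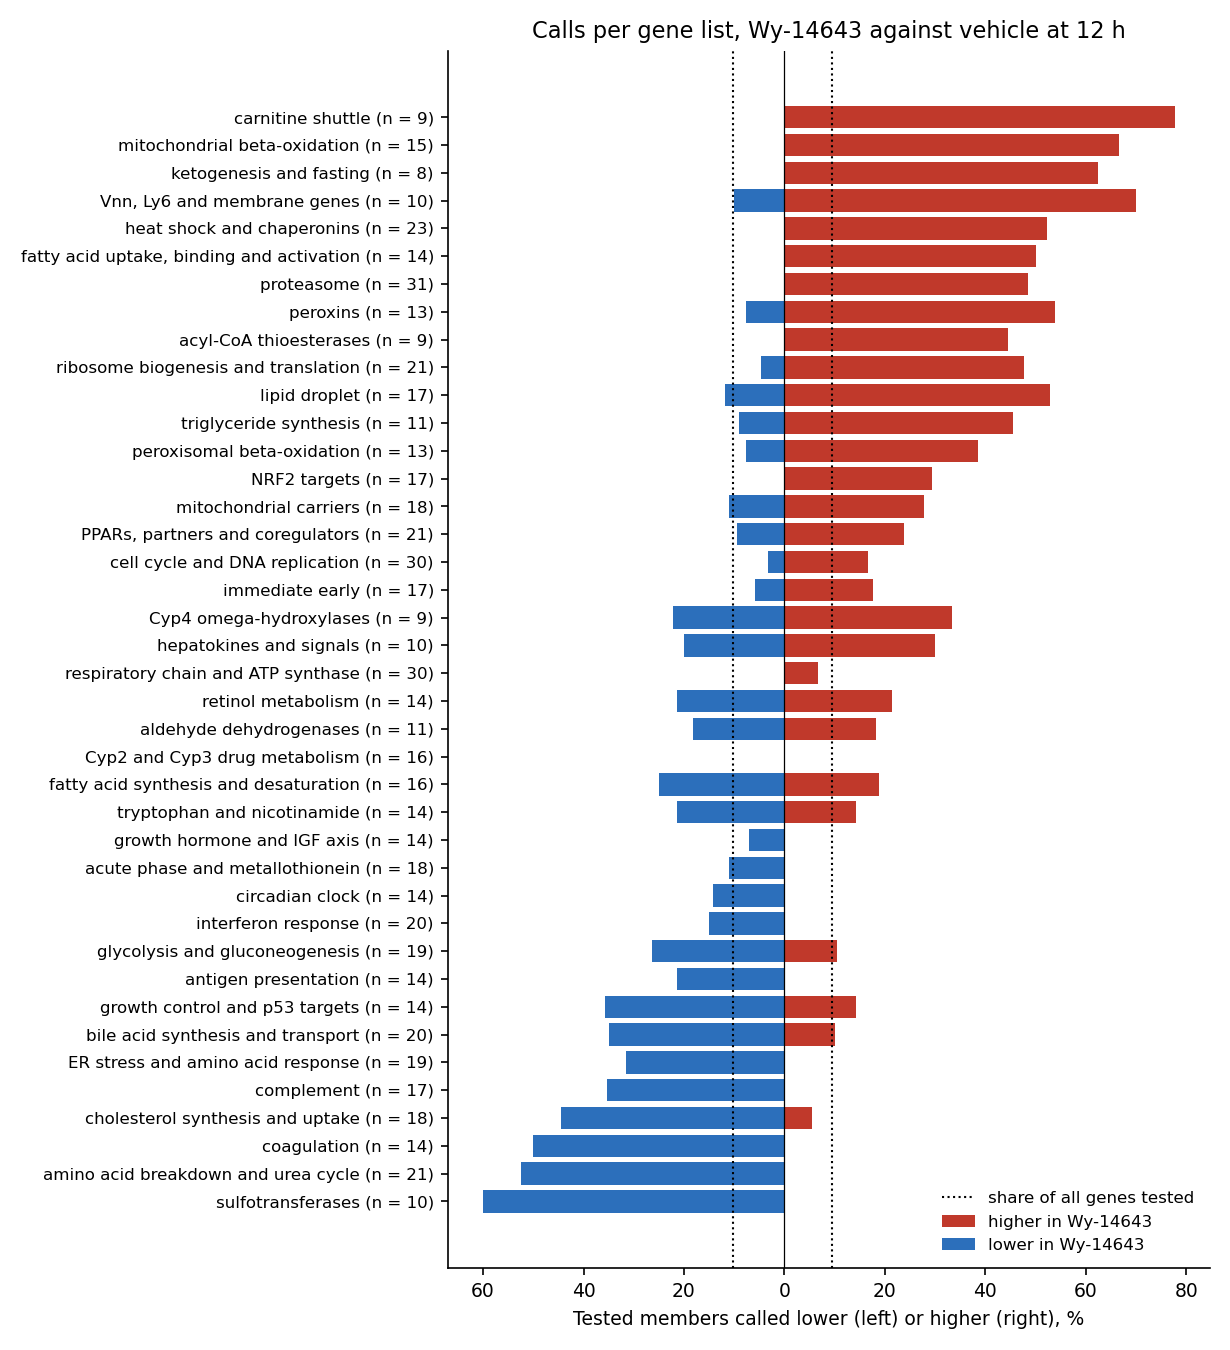
Share of the tested members of each gene list called lower (blue, left) or higher (red, right) in Wy-14643 livers, in percent, for lists with 8 or more tested members. Dotted lines mark the shares over all genes tested, 10.2% lower and 9.44% higher. Carnitine genes are at the top, with 7 of 9 higher, and sulfotransferases at the bottom, with 6 of 10 lower.

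The label of the tissue was checked against cell type markers. Of the 5 hepatocyte markers, Alb, Apoa1 and Tat were at the brightest value in all 6 arrays and 2 were tested, with a median difference of -0.57. Ttr, which carries thyroid hormone, was lower, with 13.70, 13.68 and 13.87 in Wy-14643 livers, against 14.61, 14.77 and 15.07 in vehicle livers (-1.07 ± 0.33, limma adjusted p = 0.017); its call was lost without vehicle replicate 3 (0.089), Wy-14643 replicate 1 (0.052) or Wy-14643 replicate 2 (0.056). Serpina1c did not pass the test. The mean level of the tested hepatocyte markers ran from 14.85 to 14.96 in Wy-14643 livers, against 15.31 to 15.61 in vehicle livers, and the groups did not overlap. Adipocyte markers were not tested, and Plin1 alone was listed, in the Wy-14643 livers. The mean level of 10 tested Kupffer cell markers ran from 11.55 to 11.75 in Wy-14643 livers, against 11.77 to 12.13 in vehicle livers. That of 8 endothelial markers ran from 10.26 to 10.50 in Wy-14643 livers, against 10.57 to 10.81 in vehicle livers, and that of 8 stellate cell markers from 10.93 to 11.06 in Wy-14643 livers, against 11.14 to 11.33 in vehicle livers. In each of these lists the mean levels of the groups did not overlap. Gene by gene, 4 of 10 Kupffer cell, 3 of 8 endothelial and 2 of 8 stellate cell markers lay wholly below vehicle, against 22.6% of all genes. Mean levels of 4 lymphocyte markers ran from 7.30 to 7.39 in Wy-14643 livers, against 7.42 to 7.74 in vehicle livers. For the tested cholangiocyte, neutrophil, erythroid and skeletal muscle markers the mean levels of the groups overlapped. limma called 1 Kupffer cell marker lower, C1qc, and 0 of the others; the Kupffer cell count was 3 without vehicle replicate 1 and 0 without vehicle replicate 2 or 3 or Wy-14643 replicate 1 or 2. With the replicate block 5 of 10 Kupffer cell and 3 of 8 endothelial markers were lower, beside 2234 of all 11475 genes. An unadjusted p under 0.05 was found for 2 Kupffer cell, 3 endothelial and 0 stellate cell markers, beside 3471 of all 11475 genes in either direction. The C1q genes are also in the complement list, and the part of these cell types in its count was not tested.

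Some genes were listed in 1 group only, since the authors' table leaves a probe empty on whole groups, and these could not be tested. There were 566 genes listed in all 3 Wy-14643 livers and in no vehicle liver, and 553 the other way round. Most were dim, with median levels of 6.88 and 6.77, against 9.53 over all genes listed in Wy-14643 livers. The genes named here are list members and the 10 per group with the highest probe level on the deposited scale, without 1 clone name among them, a rule for naming that ranks no amounts of RNA. In Wy-14643 livers only were Acot5 (12.24, 12.54 and 11.66), the glycerol and water channel Aqp3 (12.20, 11.88 and 12.03), the keratin Krt79 and Cyp4a12a. Il1rn, an inhibitor of interleukin-1, Smcp, Barhl1, Unc79, the replication factor Uhrf1 and Slc16a13 were others. Of the lists' members, Cidea, Plin1, Fabp3, Elovl7, Ier3 and the cyclin Ccne2 were also listed in Wy-14643 livers only. In vehicle livers only were the clock gene Arntl (9.91, 9.88 and 9.70), Cux2, Paxx, Slc15a2, the bile acid exporter subunit Slc51b, Fam222a, Atp2b2, Chrna4 and Serpina9. Mogat2, Cyp2c38, Fst, Epcam, Acmsd, Mx1 and Ms4a1 were the listed members there. No fold is given for any of them, since an empty probe has no value.

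The response at 12 h was next set against those at the times on either side, each with its own vehicle livers. limma found 3 of 10952 genes (0.0274%) whose 12 h effect differed from the 8 h effect, while 626 had an unadjusted p below 0.05; the replicate block gave 81. Crot stood at 15.72, 16.08 and 15.96 in Wy-14643 livers at 12 h, against 14.14, 14.13 and 14.03 in vehicle livers, and at 16.02, 15.64 and 15.78 in Wy-14643 livers at 8 h, against 15.13, 15.07 and 15.30 in theirs. Its effect at 12 h was 1.17 ± 0.22 above that at 8 h (limma adjusted p = 0.037). The Wy-14643 livers of both times overlap, with 2 of the 12 h values at the limit, and on the brightest probe that is never at the limit the difference was 0.49 (limma adjusted p = 1.0). Cdo1, which starts the breakdown of cysteine, differed by -1.64 at 12 h and -0.37 at 8 h (limma adjusted p = 0.048), with all vehicle livers at 12 h at the limit. The chromatin factor Mta1 differed by 0.41 at 12 h and -0.32 at 8 h (limma adjusted p = 0.048). Each of these 3 calls was lost with 10 or 11 of the 12 arrays left out in turn. Those of Cdo1 and Mta1 were also lost without a trend (0.054 and 0.052), that of Cdo1 on the values as deposited (0.063) and that of Mta1 with quantile normalization (0.084) or the brightest probe never saturated (0.095). The count was 0 without any single vehicle liver of either time, Wy-14643 replicate 3 at 8 h or Wy-14643 replicate 3 at 12 h, and 1 without Wy-14643 replicate 1 of either time.

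For 7 of 10887 genes (0.0643%) limma found a 12 h effect that differed from the 18 h effect, or 145 with the replicate block. The effect was lower at 12 h than at 18 h for Raet1e, Anxa2 and Golm1. Golm1, a Golgi membrane protein, had 9.17, 9.12 and 9.35 in Wy-14643 livers at 12 h, against 9.22, 9.40 and 9.50 in vehicle livers, and 10.44, 10.19 and 11.16 in Wy-14643 livers at 18 h, against 9.38, 8.95 and 9.44 in theirs. The groups overlap at 12 h and not at 18 h. Raet1e, a ligand of the NK cell receptor NKG2D, differed by 0.13 at 12 h and 2.62 at 18 h, and the annexin Anxa2 by 0.64 and 2.25; the 12 h call of Anxa2 was lost without vehicle replicate 3 (limma adjusted p = 0.056) or Wy-14643 replicate 1 (0.060). The effect was higher at 12 h for Synj2, an inositol phosphatase, with 3.20 at 12 h and 1.20 at 18 h, Arhgef3 with 1.85 and 0.74, the translation factor Eif4b with 0.61 and -0.46, and Wrnip1 with 1.15 and 0.25. The adjusted p-values of the 7 ran from 0.00043 to 0.048. With single arrays left out the count ran from 3 to 10: it was 3 without vehicle replicate 3 or Wy-14643 replicate 3 at 12 h or vehicle replicate 3 at 18 h, and 4 without vehicle replicate 2 or Wy-14643 replicate 1 at 18 h. Of the 12 arrays left out in turn, 10 each ended the calls of Golm1 and Eif4b, 7 that of Arhgef3 and 5 that of Wrnip1, while Raet1e, Anxa2 and Synj2 kept theirs. When a gene's probes were averaged, however, the difference of Synj2 was 1.00 (limma adjusted p = 0.20) and that of Eif4b 0.85 (0.23), and neither was called; Eif4b was also not called with median scaling (0.098) or without a trend (0.051). limma called 0 genes for both differences in the same direction, and 6 with the replicate block, Crot among them.

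**Figure D4:**
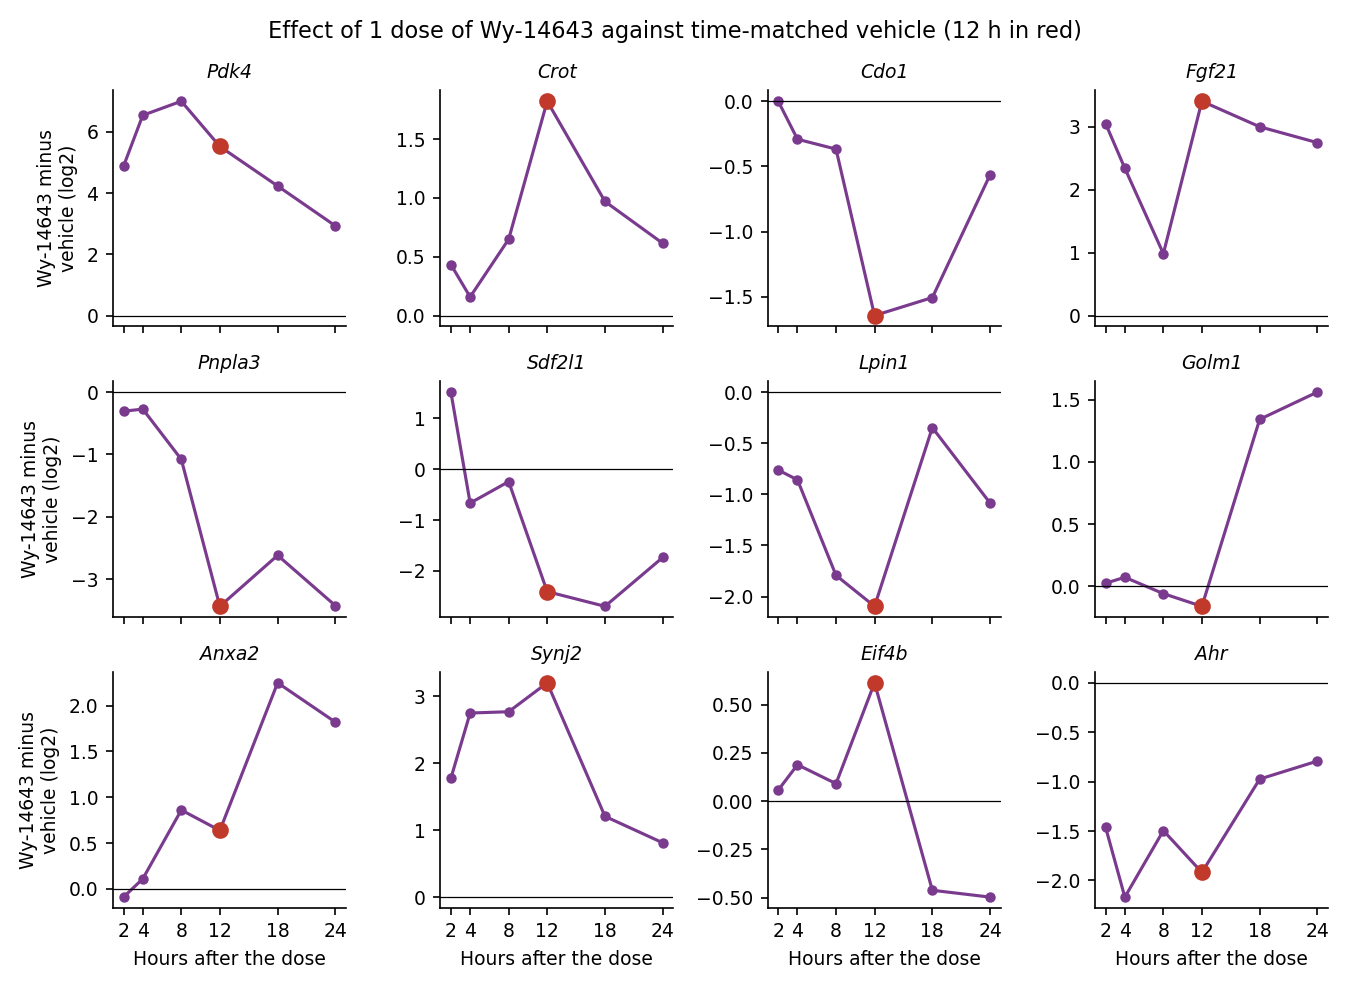
Difference between Wy-14643 livers and their time-matched vehicle livers (log2, vertical axis, its own scale in each panel) at 2, 4, 8, 12, 18 and 24 h after 1 dose, for 12 genes; the point at 12 h is red, and standard errors are not drawn. Golm1 is near 0 up to 12 h and at 1.34 at 18 h, while Synj2 is at 3.20 at 12 h and 1.20 at 18 h.

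Clofibrate, an ester of a phenoxyisobutyric acid, differs in structure from Wy-14643, a chloropyrimidine thioacetic acid. It was given at the same dose of 300 mg/kg and sampled at the same time, against its own sesame oil group. limma called 81 of 11022 genes (0.735%) for a difference between the effects of the compounds, 52 with a higher and 29 with a lower Wy-14643 effect, or 406 with the replicate block. With single arrays left out the count ran from 41 to 96; it was 41 without Wy-14643 arm vehicle replicate 3, 44 without clofibrate replicate 1, 47 without clofibrate replicate 2, and 52 without Wy-14643 replicate 1 or without clofibrate arm vehicle replicate 3. All 52 were called higher and all 29 called lower with Wy-14643, and in all 81 the Wy-14643 effect was the farther from 0. For 61 of the 81 both compounds' effects had the same sign.

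The widest gap was in Pdk4, with 15.88, 16.08 and 16.04 in Wy-14643 livers, against 10.79, 10.44 and 10.21 in their vehicle livers, and 10.89, 11.12 and 13.42 in clofibrate livers, against 11.10, 10.96 and 10.72 in theirs (difference of effects 4.64 ± 0.66, limma adjusted p = 2.1e-06). Clofibrate replicate 3 alone stood clear of the vehicle livers. Hilpda had 9.79, 9.67 and 10.90 in clofibrate livers, against 10.13, 10.29 and 10.38 in their vehicle livers, with an effect of 3.15 for Wy-14643 and -0.14 for clofibrate (limma adjusted p = 4.9e-09). Cidec differed by 5.88 with Wy-14643 and 2.58 with clofibrate (limma adjusted p = 6.6e-10). Slc25a30 (3.58 with Wy-14643 and 0.87 with clofibrate) and Gadd45b (3.80 with Wy-14643 and 1.15 with clofibrate) completed the 5 highest.

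On the lower side, Ahr had 11.95, 12.15 and 11.61 in clofibrate livers, against 11.84, 11.96 and 11.84 in their vehicle livers, with an effect of -1.92 for Wy-14643 and 0.02 for clofibrate (limma adjusted p = 3.7e-05). The ranges of clofibrate livers and their vehicle livers overlap. Tmem25 (-1.63 for Wy-14643 and 0.16 for clofibrate), the kinases Mast3 (-1.87 and -0.09) and Dclk3 (-1.58 and 0.19), and Junb (-2.70 and -0.20, on the probe its other probe does not bear out) were the other 4. The calls of Gadd45b, Junb, Dclk3 and Slc25a30 were lost with 10, 5, 3 and 2 of the 12 arrays left out in turn. That of Junb was also lost with its probes averaged (-1.77, limma adjusted p = 0.16) and in a fit on the arrays at 12 h alone (0.057), and that of Gadd45b with quantile normalization (2.58, 0.060). Among genes not called for a difference were Cyp4a12b, with effects of 3.10 for Wy-14643 and 2.84 for clofibrate, and Vnn1, with 2.93 and 2.62. The 95% interval of the difference ran from -0.75 to 1.28 for Cyp4a12b and from -0.42 to 1.05 for Vnn1. Of the 2205 genes called with Wy-14643 and tested for the difference, 2006 had an effect of the same sign with clofibrate and 2127 an effect farther from 0 with Wy-14643. These genes were picked by their Wy-14643 effect, which by itself favours effects farther from 0 with Wy-14643. Genes picked by their clofibrate effect were not counted, so the count cannot rank the compounds. Each compound had its own arm and vehicle animals, and compound and arm cannot be told apart beyond the subtraction of those vehicles.

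**Figure D5:**
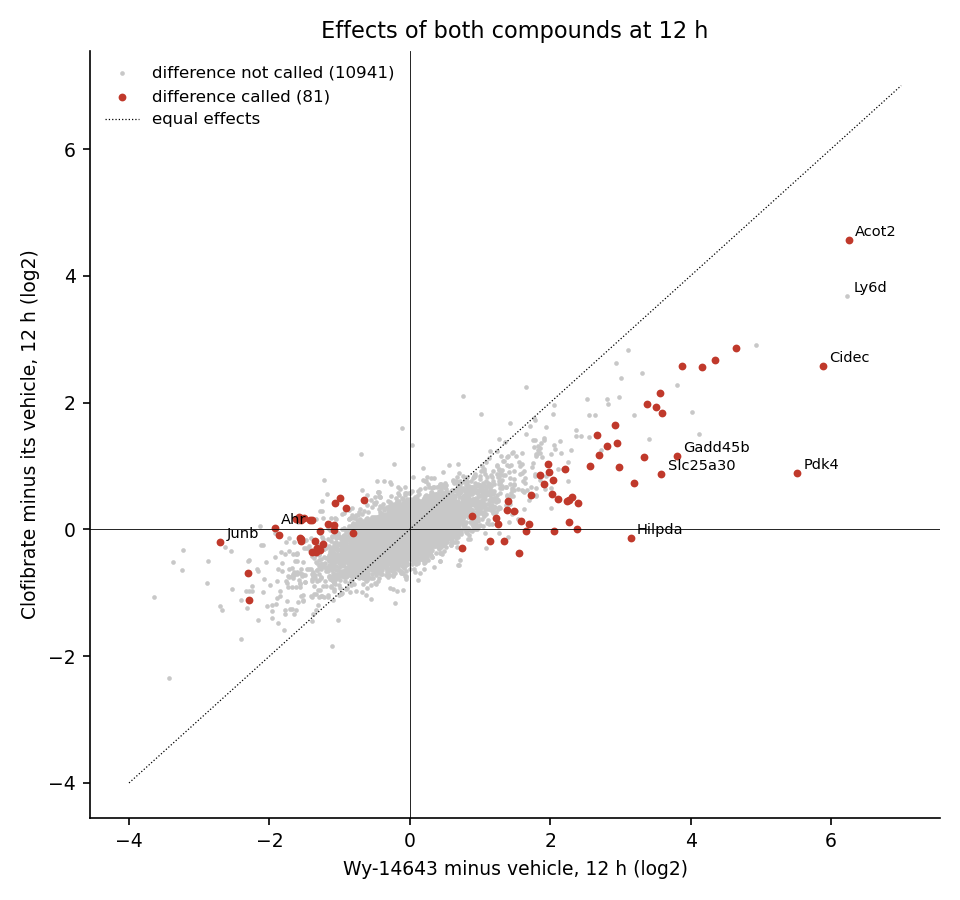
Effect of clofibrate at 12 h (log2, vertical axis) against the effect of Wy-14643 at 12 h (log2, horizontal axis), 1 point per gene tested in both arms, each effect taken against the vehicle livers of its own arm. Red points are the 81 genes called for a difference of the effects, and the dotted line marks equal effects. The called points lie on the Wy-14643 side of that line, and Ly6d, at 6.23 and 3.68, is not called.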

How the data were processed

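Total liver RNA was labelled with Cy3 and hybridised to single-colour Agilent arrays, per the labels' protocols. The authors deposited 1 table of log2 fluorescence for 108 arrays, in which 51.5% of values are empty, mostly for whole groups; their normalization and filter are not given in the sources used here. Depth has no meaning for arrays, so their number, 3 per group, limits the precision. Groups came from the array titles.

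Each array was scaled by its 75th percentile over the 12210 probes listed on all arrays. Of 41096 probes, 32609 carried 1 gene symbol, 44 several and 8443 none in the platform annotation, and a gene was given its brightest probe listed on all 6 arrays. A probe within 0.1 of the array's brightest value counts as at the limit; 243 genes at the limit in all 6 arrays were not tested, and 1 group wholly at the limit makes the difference a lower bound, with the array's limit as the measured value. limma 3.58.1 (R 4.3.3) fitted 1 mean per group on the 54 arrays of the Wy-14643 experiment, or all 108 for clofibrate, with a trended prior and Benjamini-Hochberg adjustment. The alternatives were other scalings, other probe rules, a filter on dim genes, no trend, the 12 h arrays alone, single arrays left out and a replicate block. On simulated data with 50 genes changed per size among 11475, the fit recovered 54% of 1.5-fold, 86% of 2-fold, 98% of 4-fold and 100% of 8-fold changes, with 10 false among 179 calls. The simulated noise was independent between arrays, had the same spread in all groups and met no brightness limit. These rates therefore need not hold for the real arrays.

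The replicate numbers come from the titles. Deviations from the group means correlated by 0.47, 0.21 and 0.33 between same-numbered Wy-14643 and vehicle arrays and by at most 0.04 between others. Deviations within a group cancel out, so high values for same-numbered arrays force low values for the others. What same-numbered arrays share is not stated in the labels. The main test takes no account of the numbers, and counts with them as blocks are given beside several results. The labels call the replicates biological.

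The text names the 15 highest and 15 lowest called genes whose groups do not overlap, members of the gene lists, the 5 highest and 5 lowest called genes of each test of a difference, and, of genes listed in 1 group only, list members and the 10 brightest. The members and lists were chosen with earlier results of these data known. The lists hold 935 entries, of which 867 are on the array. Promoters and starts are RefSeq's.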

Additional observations from a re-analysis of the deposited data

Results flagged for a closer look

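The effect of Wy-14643 at 12 h differed from that at 8 h, by limma's test of the difference, for Cdo1 (-1.28), Mta1 (0.73) and Crot (1.17), each value being the 12 h effect minus the 8 h effect on the log2 scale. It differed from that at 18 h for Raet1e (-2.50), Anxa2 (-1.61), Golm1 (-1.50), Wrnip1 (0.91), Eif4b (1.07), Arhgef3 (1.12) and Synj2 (1.99). Of the calls for a difference between times, only that of Anxa2 was kept under every alternative run. The call of Raet1e was kept wherever the gene was tested. Raet1e is dim, however, and was not among the genes tested when dim genes were left out.

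Among the genes whose Wy-14643 effect differed from the clofibrate effect at 12 h, the lowest differences of effects were those of Junb (-2.51), Ahr (-1.94), Tmem25 (-1.79), Mast3 (-1.78) and Dclk3 (-1.77). The highest were those of Pdk4 (4.64), Cidec (3.30), Hilpda (3.29), Slc25a30 (2.72) and Gadd45b (2.65). The calls of Junb, Dclk3, Slc25a30 and Gadd45b were lost under some of the alternatives, and the other probe of Junb does not bear out its change.

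Outside the tests, 566 genes were listed in all 3 Wy-14643 livers and in no vehicle liver, a signal with no level in the vehicle group to set it against.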

How the results depend on the processing

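Of the 2249 genes called at 12 h, all were also among the 4138 called with the replicate block (1904 higher, 2234 lower). With single arrays left out the count ran from 1639 to 1989 (823 to 965 higher, 816 to 1024 lower). Under the other alternatives the lowest count was 2029 with dim genes left out, where only 8606 genes were tested. The highest was 2669 of 11475 on the 12 h arrays alone, of which 2007 were among the 2249 with the same sign. The 3 genes whose effect differed between 12 h and 8 h became 81 with the replicate block, 9 with the 75th percentile over all listed probes and with quantile normalization, 1 without a trend, 0 with probes never at the limit, and 0 to 3 with single arrays left out. The 7 genes that differed between 12 h and 18 h became 145 with the block, 19 on the values as deposited, 103 with the percentile over all listed probes, 337 with quantile normalization, and 3 to 10 with single arrays left out. The 81 genes that differed between compounds became 406 with the block and 41 to 96 with single arrays left out. The cause of these shifts was not tested. Of 3642 repeats over 223 results for named genes, 3376 kept direction and side of the threshold, 225 lost a call, 35 gained one and 6 turned sign. The last were values that were not called: with single arrays left out, Cdk1 ran from -0.56 to 0.19, Egr1 from -1.14 to 0.15, Saa1 from -0.51 to 0.076, Saa2 from -0.43 to 0.16 and Scd1 from -0.36 to 0.084. Probes at the limit understate differences, and dim probes that the authors left empty could not be tested.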
